A study of Mus musculus with 4 samples.

Results

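The eukaryotic translation initiation factors (eIFs) were examined in regulatory T cells that had been activated with or without engagement of the costimulatory receptor OX40. Members were the genes whose platform symbol begins with Eif followed by a digit from 1 to 6, without the eIF2 kinases and without pseudogenes. They numbered 43 of 16593 named genes, read by 67 probes, and each gene is given by its brightest probe by the mean signal over the 4 arrays. The set held 4 eIF1, 8 eIF2, 12 eIF3, 14 eIF4 and 4 eIF5 genes, and Eif6.

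The OX86 group held cells cultured overnight with an antibody to CD3 and OX86, an agonist antibody to OX40. The isotype group held cells cultured overnight with the same CD3 antibody and rat IgG. All cells were spleen regulatory T cells, sorted on a green fluorescent Foxp3 reporter from C57Bl/6 mice 8 to 12 weeks old. Each group had 2 Illumina bead arrays, hybridised with biotinylated complementary RNA from total RNA. All 4 arrays lay on 1 slide. The labels do not tell whether the arrays of a group came from separate animals or cultures, and the p-values therefore reflect array-to-array spread that could be technical.

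Initiation brings the small ribosomal subunit, the initiator transfer RNA and a messenger RNA together at the start codon. The eIF4 proteins bind the cap and unwind the leader, eIF2 carries the initiator transfer RNA as a complex with GTP, eIF2B reloads eIF2 with GTP, and eIF3 bridges the messenger and the small subunit. The eIF1 and eIF5 proteins act in start codon selection and in joining of the large subunit. In T cells, activation through the antigen receptor and costimulation is known to raise protein synthesis, and the 4E-binding proteins, which hold eIF4E away from eIF4G, are controlled by the kinase mTOR.

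All 6 regulatory T-cell markers were detected on all 4 arrays, Foxp3 and Tnfrsf4 (OX40) among them. Of 5 myeloid markers with a probe, 0 were detected on as many as 2 arrays, and their summed signal ran from 1397 to 1441 on OX86 arrays and from 1372 to 1465 on isotype arrays. The B-cell markers Cd79a and Cd79b were detected on all 4 arrays at log2 signals of 5.87 to 7.22, and Pax5 on 0. The B-cell marker Ms4a1 read 6.38 and 6.18 with OX86, detected on both arrays, and 5.79 and 5.15 with isotype, detected on 1 (limma, unadjusted p = 0.0267, adjusted p = 0.9999). The summed signal of the 4 B-cell markers was 1321 and 1322 on OX86 arrays and 1354 and 1205 on isotype arrays, and its part in the results was not tested. Of 5 NK and CD8 T-cell markers 2 passed the filter, Cd8b1 and Klrd1, with sums of 2215 and 2249 on OX86 arrays and 2467 and 1878 on isotype arrays. Cd8b1 read 9.61 and 9.54 with OX86 and 9.57 and 9.79 with isotype, and Cd8a was detected on 0 arrays. Of 4 erythroid and platelet markers 1 passed, Hba-a1, and the 4 had sums of 2168 and 1747 on OX86 arrays and 3429 and 1376 on isotype arrays. After normalization Hba-a1 still differed within groups, at 10.11 and 9.14 with OX86 and 10.69 and 9.26 with isotype. It was higher on the first array of each group, and its part in the results was not tested. All these sums are of deposited signals before normalization, which also differ with array brightness. Foxp3 itself had deposited signals of 9596.3 and 4354.0 on isotype arrays. The second isotype array (isotype 2) stood apart, with 45.9% of probes detected against 50.2% to 53.2% on the others. Set against the average of the remaining arrays, its log2 signals for the tested initiation factors deviated with an SD of 0.315, where the other arrays had 0.204 to 0.219. Many of the values below are given with and without it.

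The promoter windows of 33 of the 43 genes were available from RefSeq (GRCm38.p6), spanning 250 bases before to 50 bases after each annotated start. They were searched for the single motif CACGTG, the E-box that Myc binds and a palindrome that reads alike on either strand, because several initiation factor genes are known Myc targets. CACGTG lay in a window of 9 of the 33 genes (27.3%), against 8.09% of 27025 genes with a window. Counting only genes with a single window, the shares were 24.1% and 7.12%. The 27025 genes were not matched to the members for expression or base composition, and the cause of the higher share was not tested. A match describes these letters only and shows no binding. The sequences below run 5′ to 3′ on the strand of the gene and stop before the annotated start, with CACGTG in capitals. They are shown because the genes that carry the E-box are set against the others below.
Eif1b, chr9:120492567-120492602, plus strand: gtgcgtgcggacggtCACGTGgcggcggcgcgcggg
Eif3f, chr7:108934332-108934367, plus strand: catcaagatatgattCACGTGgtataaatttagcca
Eif3k, chr7:28981912-28981947, minus strand: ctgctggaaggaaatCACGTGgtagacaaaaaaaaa
Eif4a1, chr11:69672592-69672627, minus strand: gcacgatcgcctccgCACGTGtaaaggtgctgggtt
Eif4h, chr5:134639485-134639520, minus strand: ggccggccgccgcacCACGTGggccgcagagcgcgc
Eif5a, chr11:69920788-69920823, minus strand: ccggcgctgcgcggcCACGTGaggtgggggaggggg
Eif5a, chr11:69921440-69921475, minus strand: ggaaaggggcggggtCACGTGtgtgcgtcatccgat
Eif5a2, chr3:28781120-28781155, plus strand: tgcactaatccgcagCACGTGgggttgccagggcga
Eif5a2, chr3:28781145-28781180, plus strand: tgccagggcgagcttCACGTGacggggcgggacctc

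Eif4e, which encodes the cap-binding protein, carried CACGTG at 228 and at 64 bases before one of its 2 annotated starts. The 250 bases before that start, chr3:138527018-138527267 on the plus strand, read as follows, with both E-boxes in capitals.
Eif4e: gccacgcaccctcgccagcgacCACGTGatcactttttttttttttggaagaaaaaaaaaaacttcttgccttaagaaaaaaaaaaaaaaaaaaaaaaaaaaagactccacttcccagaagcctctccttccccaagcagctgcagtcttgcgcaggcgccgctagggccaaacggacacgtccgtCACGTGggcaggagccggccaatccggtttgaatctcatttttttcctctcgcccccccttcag
Eif3a had its CACGTG 22 bases after the start.

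None of the initiation factors differed between OX86 and isotype arrays by the test, and they divided evenly in direction. Of the 43 genes, 35 passed the filter on dim probes (detection p under 0.05 on at least 2 arrays), 17 of them with a higher mean with OX86 and 18 with a lower one. The members past an adjusted p of 0.05 numbered 0 of 35, against 0% of the 13338 tested probes (limma, Benjamini-Hochberg over all tested probes, smallest adjusted p = 0.9999). At an unadjusted p under 0.05 there were also 0 of 35, against 3.33% of tested probes (1.73% higher and 1.6% lower with OX86), and the smallest unadjusted p in limma was 0.148, that of Eif3h. In such bulk samples, fewer cells of a type and less RNA per cell cannot be told apart. Linear fold changes (OX86 over isotype) ran from 0.728 for Eif3h to 1.25 for Eif1b.

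The OX86 and isotype arrays did not overlap for 9 of 35 members (25.7%), against 26.9% of all tested probes. In 5 of these OX86 was higher (background 13.9%), namely Eif1b, Eif4a3, Eif4e2, Eif4enif1 and Eif6, and in 4 lower (background 13.1%), namely Eif2b1, Eif3d, Eif3f and Eif4h. The share was near that of all probes and is no result about these genes. For 2 of 35 members (5.71%), Eif2b1 and Eif6, the change was larger than the gap between the arrays of either group, against 16.3% of all tested probes.

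**Figure D1:**
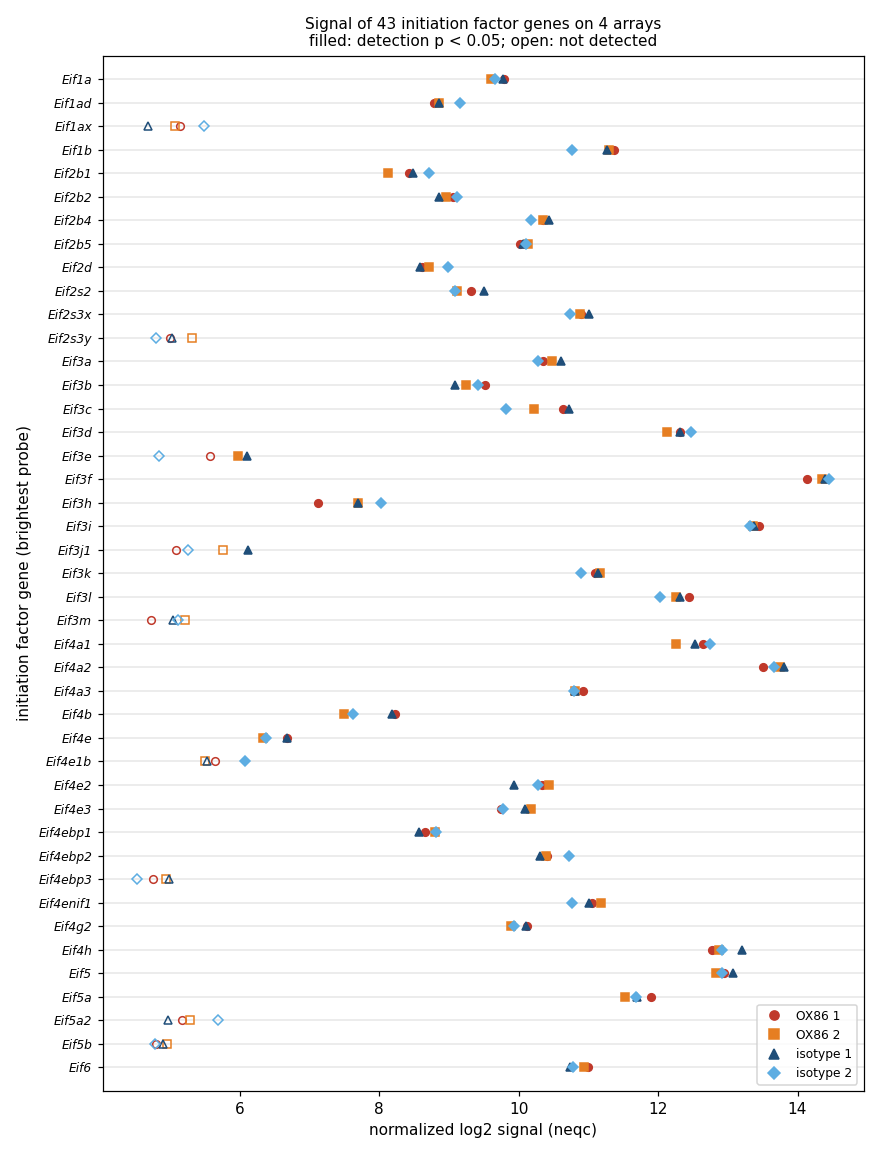
Normalized log2 signal (horizontal axis) of the brightest probe of the 43 initiation factor genes (rows) on each OX86 and each isotype array; filled symbols were detected and open ones were not. For 35 genes the probe was detected on at least 2 arrays, and the arrays of both groups are interleaved in most rows.

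The precision of each comparison was set by the 4 arrays. Over the 35 members, 95% intervals extended a median of 0.52 log2 units to either side of the change, from 0.47 to 1.08 by gene. For 32 of the 35 the interval lay within a 2-fold change in either direction, as it did for 77.3% of all tested probes. An adjusted p above the threshold does not show that a gene was unchanged. The median size of a change was 0.11 among the members and 0.15 among all tested probes. The median gap between arrays of a group was 0.14 for OX86 and 0.26 for isotype among the members, and 0.22 for OX86 and 0.29 for isotype among all tested probes.

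By group, the median log2 change was -0.012 over 3 eIF1 genes, -0.014 over 7 eIF2 genes, 0.088 over 10 eIF3 genes, -0.018 over 12 eIF4 genes and -0.041 over 2 eIF5 genes, beside 0.005 over all tested probes. When arrays were scaled by their medians and not by quantiles, all of these became positive, as the median of all tested probes moved to 0.118. Relative to that shift, the group medians were 0.01, 0.00, 0.06, -0.01 and -0.02 for eIF1 to eIF5. The number of members higher with OX86 was 27 of 35 (77.1%) under that scaling, where 71.1% of all tested probes were higher, against 17 of 35 (48.6%) with quantile normalization, where 51% were. The eIF3 median was -0.12 without isotype 2 and 0.11 without isotype 1, so its sign turned when isotype 2 was left out. It was 0.004 without OX86 1, and -0.010 with the mean of a gene's probes.

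**Figure D2:**
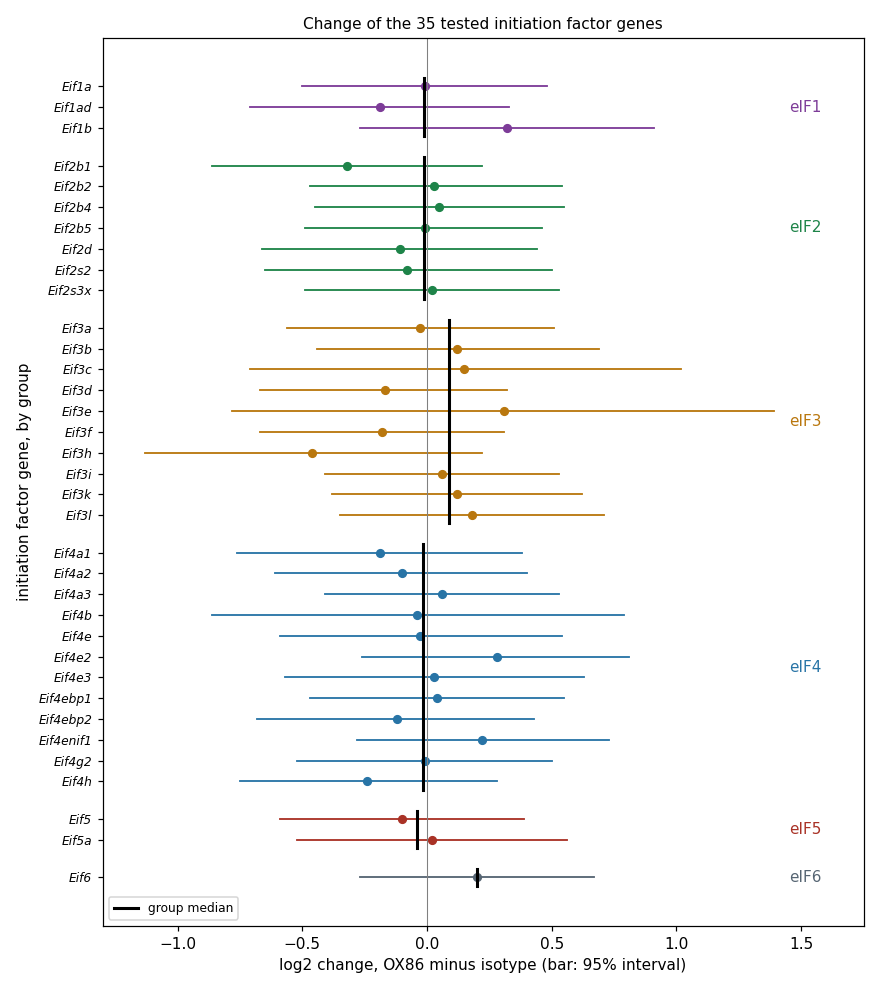
Log2 change, OX86 minus isotype (horizontal axis), of the 35 tested genes (rows) with 95% intervals, coloured by eIF group; black bars mark group medians. Every interval includes 0, and the group medians run from -0.041 (eIF5) to 0.20 (Eif6 alone).

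Among the cap-binding and cap-regulating genes, no change passed the test. Eif4e read 6.67 and 6.33 on OX86 arrays and 6.67 and 6.38 on isotype arrays, a log2 change of -0.03 (95% interval -0.59 to 0.54). The spread within each group was larger than the difference. The single Eif4e probe was dim, with deposited signals of 361.8 and 348.2 with OX86 and 389.2 and 312.1 with isotype. The medians of the arrays were 296.4 to 324.7, so this change was read close to background. Eif4e2, which encodes 4EHP, a cap-binding homologue known for repressing translation, read 10.34 and 10.43 with OX86 and 9.94 and 10.28 with isotype. Its change was 0.28 (-0.26 to 0.81), with no overlap between the groups, but its other probes gave -0.08 and 0.04. Eif4e3, a further cap-binding homologue, had 0.03 by its brightest probe (-0.13 without isotype 2), while its remaining probes gave 0.28 and -0.13.

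For the 4E-binding proteins and the eIF4E transporter no change passed the test. Eif4ebp1, the inhibitor best known as a target of mTOR, read 8.66 and 8.80 with OX86 and 8.57 and 8.81 with isotype, a change of 0.04 (-0.47 to 0.55) that was -0.08 without isotype 1. Eif4ebp2 read 10.40 and 10.39 with OX86 and 10.31 and 10.72 with isotype, a change of -0.12 (-0.68 to 0.43). The OX86 arrays lay between the isotype arrays, and the Eif4ebp2 change was 0.08 without isotype 2. Eif4ebp3 was not detected on any array. Eif4enif1, which encodes the eIF4E transporter 4E-T, read 11.05 and 11.18 with OX86 and 11.01 and 10.77 with isotype, a change of 0.22 (-0.28 to 0.73). Its second probe had 0.02, with the groups overlapping.

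The helicase eIF4A and its cofactors also had no change that passed the test. Eif4a1, the best studied eIF4A helicase, read 12.65 and 12.25 with OX86 and 12.53 and 12.74 with isotype, a change of -0.19 (-0.76 to 0.38). It was -0.39 without OX86 1 and 0.01 without OX86 2, and 0.02 at the second probe. Its close paralogue Eif4a2 read 13.51 and 13.75 with OX86 and 13.81 and 13.66 with isotype, a change of -0.10 (-0.61 to 0.40), with 0.09 at the second probe. For Eif4a2 the change was also 0.03 under median scaling and 0.01 without OX86 1. Eif4h, a cofactor that stimulates the helicase, read 12.78 and 12.88 with OX86 and 13.21 and 12.92 with isotype, a change of -0.24 (-0.75 to 0.28). For Eif4h the OX86 arrays were the lower pair, and the change was -0.09 without isotype 1. The cofactor Eif4b read 8.23 and 7.49 with OX86 and 8.18 and 7.62 with isotype, a change of -0.04 (-0.86 to 0.79). With both groups so widely spread, the Eif4b change was -0.41 without OX86 1, 0.33 without OX86 2 and -0.32 without isotype 2. The helicase of the exon junction complex Eif4a3 had 0.06, and the scaffold Eif4g2 had -0.01 with all arrays and -0.09 without isotype 2. Eif4g1 had no named probe and was not analysed here.

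The eIF2 subunits and the exchange factor eIF2B, on which stress signalling to translation converges, showed no change past the test. Eif2s3x, the X-linked gene of the gamma subunit, read 10.90 and 10.88 with OX86 and 11.01 and 10.73 with isotype, a change of 0.02 (-0.49 to 0.53) that was -0.12 without isotype 2. Eif2s3y, its Y-linked homologue, was not detected on any array, with log2 signals of 5.0 and 5.32 with OX86 and 5.03 and 4.80 with isotype. The beta subunit gene Eif2s2 read 9.31 and 9.11 with OX86 and 9.50 and 9.08 with isotype, a change of -0.08 (-0.65 to 0.50). It was -0.29 without isotype 2 and 0.13 without isotype 1, and the second probe had 0.11. Eif2s1, the alpha subunit gene, had no named probe.

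The start regions of the X and Y homologues were searched for the tract of pyrimidines (C or T) that often begins messengers whose translation mTOR controls. Eif2s3x was detected on every array and Eif2s3y on 0, and a link between this and the tract was not tested. The values of other sex-linked transcripts are given in the last section. A C at the start followed by at least 4 pyrimidines was found for 2 of 33 initiation factor genes (6.06%), Eif2s3x and Eif3f, against 3.01% of all 27025 genes. Each sequence below begins 25 bases before the annotated start, and a tract that begins at that start is in capitals. In Eif2s3y the base at the annotated start is an A, and a C followed by further pyrimidines begins at the next base. The search looked only at the annotated start and did not count it, so it does not show that Eif2s3y lacks such a tract.
Eif2s3x, chrX:94212632-94212676, minus strand: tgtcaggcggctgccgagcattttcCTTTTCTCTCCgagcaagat
Eif2s3y, chrY:1010570-1010614, plus strand: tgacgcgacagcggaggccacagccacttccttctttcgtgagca
Eif3f, chr7:108934390-108934434, plus strand: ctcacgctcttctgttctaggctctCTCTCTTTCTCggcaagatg

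Of the eIF2B subunits, Eif2b1 (alpha) read 8.43 and 8.13 with OX86 and 8.49 and 8.71 with isotype, a change of -0.32 (-0.86 to 0.22). Both OX86 arrays were lower, but the change was -0.17 without OX86 2 and the second probe had 0.16. Eif2b5 (epsilon), which holds the exchange activity, read 10.02 and 10.13 with OX86 and 10.06 and 10.11 with isotype. Its change was -0.01 (-0.49 to 0.46), and its other probes gave -0.11 and 0.06. Eif2b2 (beta) had 0.03 with all arrays and 0.16 without isotype 2, and Eif2b4 (delta) had 0.05 with all arrays and -0.08 without isotype 2. Eif2d, which can deliver transfer RNA to the small subunit without eIF2, read 8.62 and 8.72 with OX86 and 8.58 and 8.98 with isotype, a change of -0.11 (-0.66 to 0.44), with 0.27 at its second probe. The Eif2d change was 0.09 without isotype 2 and -0.30 without isotype 1.

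The eIF3 subunits, 10 of 12 tested, held the most negative change (Eif3h) and the widest interval (Eif3e) of the 35 tested members. Eif3h read 7.12 and 7.70 with OX86 and 7.70 and 8.03 with isotype, a change of -0.46 (-1.13 to 0.22). The highest OX86 array and the lowest isotype array met at 7.70. The change was -0.17 without OX86 1 and -0.75 without OX86 2, so OX86 1 carried much of it. Eif3f read 14.14 and 14.35 with OX86 and 14.40 and 14.45 with isotype, a change of -0.18 (-0.67 to 0.31). Eif3d, whose protein can itself bind the cap of some messengers, read 12.32 and 12.13 with OX86 and 12.32 and 12.47 with isotype, a change of -0.17 (-0.67 to 0.32). The groups did not overlap for Eif3f and Eif3d, although the nearest arrays of Eif3d both read 12.32 to the printed precision.

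Eif3e had log2 signals of 5.57 and 5.98 on OX86 arrays and 6.10 and 4.84 on isotype arrays, and was detected on 1 array of each group. Its change of 0.31 (-0.78 to 1.39) thus includes values below detection, and it was -0.33 without isotype 2 and 0.94 without isotype 1. Eif3c, a core subunit, had 0.15 with all arrays, -0.30 without isotype 2 and 0.61 without isotype 1. The scaffold subunit Eif3a (-0.03), Eif3b (0.12), Eif3i (0.06), Eif3k (0.12) and Eif3l (0.18) completed the tested subunits. Without isotype 2 these were -0.19 for Eif3a, 0.30 for Eif3b, 0.03 for Eif3i, -0.01 for Eif3k and 0.04 for Eif3l.

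Among the factors of start codon selection and subunit joining, Eif1b had the most positive change of the 35 tested members. It read 11.37 and 11.29 on OX86 arrays and 11.26 and 10.77 on isotype arrays, a change of 0.32 (-0.27 to 0.91). Both OX86 arrays were higher, but isotype 2 set most of the difference and the change was 0.07 without it. Eif1a read 9.79 and 9.61 with OX86 and 9.77 and 9.66 with isotype, a change of -0.01 (-0.50 to 0.48). Eif1ad, which encodes a protein with an eIF1A-like domain, read 8.78 and 8.86 with OX86 and 8.85 and 9.16 with isotype, a change of -0.19 (-0.71 to 0.33), and -0.03 without isotype 2. Eif1 had no named probe.

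Eif5, which promotes GTP hydrolysis by eIF2 at the start codon, read 12.95 and 12.83 with OX86 and 13.08 and 12.91 with isotype, a change of -0.10 (-0.59 to 0.39). Its other probes gave -0.05 and 0.03. Eif5a, the hypusine-bearing factor that helps ribosomes past difficult peptide bonds, read 11.90 and 11.53 with OX86 and 11.70 and 11.69 with isotype, a change of 0.02 (-0.52 to 0.56). The isotype arrays lay between the OX86 arrays, and the second Eif5a probe gave 0.04. Eif6, which keeps the large subunit from joining too early, read 11.00 and 10.93 with OX86 and 10.74 and 10.78 with isotype. Its change was 0.20 (-0.27 to 0.67), the groups did not overlap, and it ran from 0.16 to 0.24 without each array in turn. It nonetheless did not pass the test (limma, unadjusted p = 0.331).

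**Figure D3:**
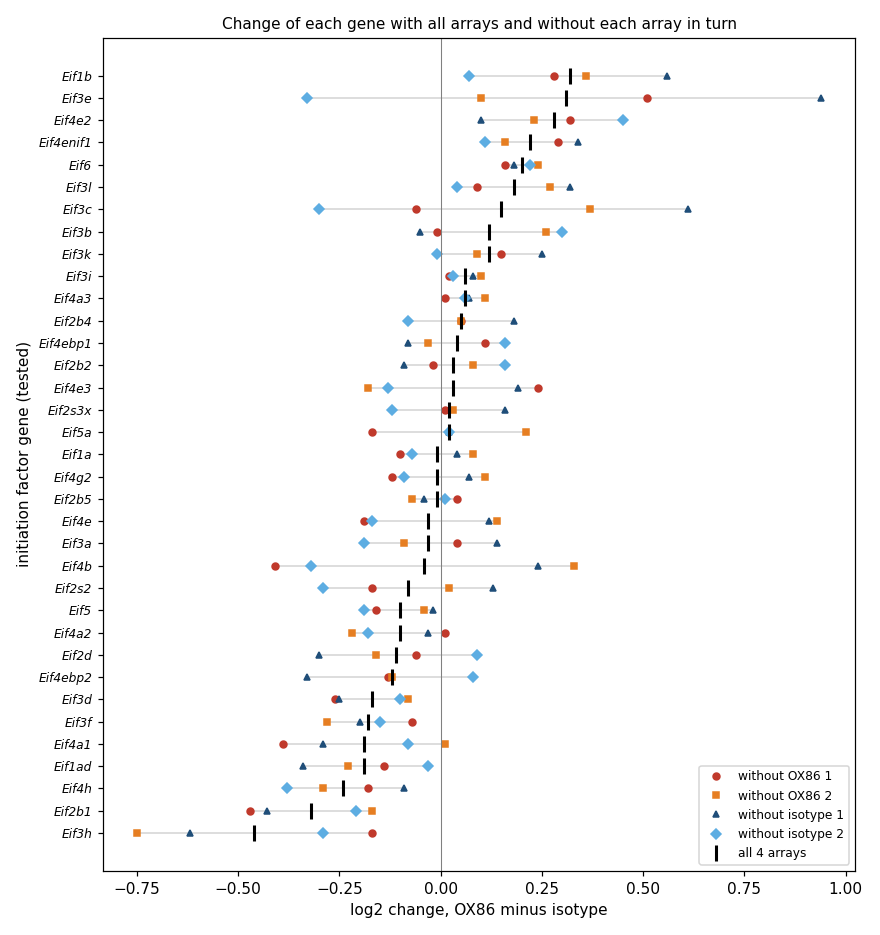
Log2 change, OX86 minus isotype (horizontal axis), of the 35 tested genes (rows) with all arrays (black bars) and without each array in turn (symbols). The symbols of 21 genes fall on both sides of 0 or opposite the black bar, and those of 14 genes stay on one side.

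For 14 of the 35 members the sign held without any single array, and for 13 of these it also held under each of the other processing settings. Those 13 were Eif1ad, Eif1b, Eif2b1, Eif3d, Eif3f, Eif3h, Eif3i, Eif3l, Eif4a3, Eif4e2, Eif4enif1, Eif4h and Eif6. A direction that holds among overlapping subsets of 4 arrays is not a test of a change. Where the groups did not overlap, the sign could not turn when an array was left out. The share of all tested probes that kept their sign was not counted, so the list is no result about these genes.

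Probes of the same gene offered a second reading for 16 members. The signs of the tested probes differed in 10 of them, Eif2b1, Eif2b5, Eif2d, Eif2s2, Eif3b, Eif4a1, Eif4a2, Eif4e2, Eif4e3 and Eif5, and were alike in 6, Eif3a, Eif3i, Eif3l, Eif4enif1, Eif4g2 and Eif5a. Among all 56 tested member probes, 1 had an unadjusted p under 0.05 in limma (1.79%, against 3.33% of all tested probes). This was the dimmer Eif3b probe, with log2 signals of 5.44 and 5.62 on OX86 arrays and 6.18 and 6.15 on isotype arrays. It was not detected on either OX86 array, so its log2 change of -0.63 (-1.12 to -0.15) includes values below detection. It did not pass the test (limma, unadjusted p = 0.0185, adjusted p = 0.9999). The brightest Eif3b probe read 9.51 and 9.24 with OX86 and 9.08 and 9.42 with isotype, a change of 0.12.

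**Figure D4:**
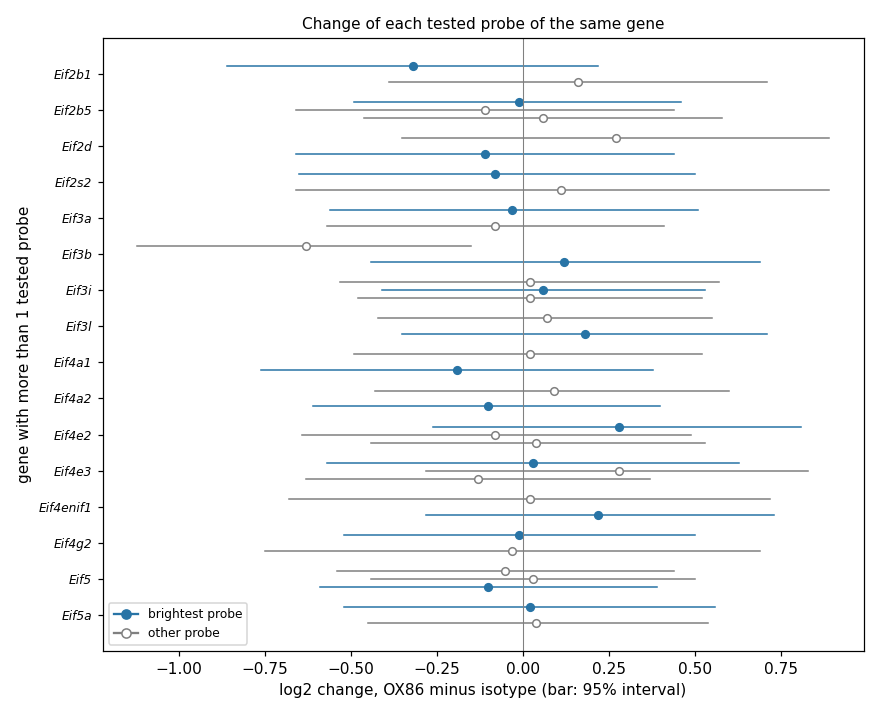
Log2 change, OX86 minus isotype (horizontal axis), of each tested probe of the 16 genes with more than 1 tested probe (rows), with 95% intervals; filled circles mark the brightest probe. Probes of 10 genes lie on both sides of 0, and only the dimmer Eif3b probe has an interval that leaves out 0.

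The 8 members that did not pass the filter were Eif1ax, Eif2s3y, Eif3j1, Eif3m, Eif4e1b, Eif4ebp3, Eif5a2 and Eif5b. Eif3j1 and Eif4e1b were each detected on 1 isotype array and on 0 OX86 arrays, and the other six were not detected on any array. Eif5b, the GTPase of subunit joining, was read by a pair of probes at log2 signals of 4.73 to 4.99 with OX86 and 4.71 to 4.90 with isotype. Eif3m, a subunit of the same complex as the detected eIF3 genes, read 4.72 and 5.21 with OX86 and 5.04 and 5.11 with isotype. A probe not well above background does not show that its gene was silent: the probe of Eef1a1, an elongation factor gene that cells express at high levels, was detected on 1 OX86 array and on 0 isotype arrays.

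The members that carry CACGTG were set against those that do not. The 8 tested members with the E-box had a median log2 change of -0.03, from -0.24 (Eif4h) to 0.32 (Eif1b), with 3 higher and 5 lower. The 19 tested members with a window but no E-box had a median of -0.01, from -0.32 to 0.28, with 9 higher and 10 lower. Of all tested probes, 51% were higher. Under median scaling, where all tested probes had a median of 0.118, 4 of the 8 with the E-box were higher (median 0.05) and 16 of the 19 without it (median 0.12). Under that scaling 71.1% of all tested probes were higher. The split was not followed without each array in turn, and a difference between these small sets was not tested. Myc itself, which was listed with the ribosome assembly genes, read 6.09 and 6.11 with OX86 and 6.49 and 6.14 with isotype, a change of -0.22 (-0.75 to 0.32), which did not pass. Its probe was close to background, with deposited signals of 327.9 and 335.4 with OX86 and 373.6 and 304.7 with isotype.

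Other genes of translation were followed as lists, which share the arrays above. Of the elongation and termination genes, 13 of 14 were tested, 6 higher and 7 lower with OX86, with a median of -0.01 and 0 past the test. Without isotype 2 the split was 3 higher and 10 lower, and without isotype 1 it was 9 higher and 4 lower. Abce1, which recycles ribosomes, read 8.41 and 7.91 with OX86 and 8.32 and 6.65 with isotype, a change of 0.67 (-0.70 to 2.04) that was -0.17 without isotype 2. Gspt2 (0.26), Etf1 (0.15), both termination factors, and the elongation factor subunit Eef1d (-0.13) were the others of the 4 with the smallest p-values. Without isotype 2 they had 0.13 (Gspt2), -0.09 (Etf1) and -0.03 (Eef1d). Gspt2 was not detected on isotype 2, and its change was 0.058 when no background was corrected. With median scaling, 13 of 13 of these genes were higher, at a median of 0.10 beside 0.118 for all tested probes.

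Partners and regulators of initiation gave 25 tested genes, 13 higher and 12 lower, with a median of 0.00 and 0 past the test. Under median scaling 21 were higher and 4 lower (median 0.14, beside 0.118 for all tested probes), and without isotype 2 the split was 9 higher and 16 lower. Pdcd4, an inhibitor of eIF4A, read 9.50 and 9.45 with OX86 and 9.25 and 9.26 with isotype, a change of 0.22 (-0.24 to 0.69) with no overlap between the groups. The eIF2 kinase gene Eif2ak1 read 9.49 and 9.55 with OX86 and 9.70 and 9.78 with isotype, a change of -0.22 (-0.69 to 0.25), also with no overlap. Of the 25 tested genes, 1 was higher without overlap (Pdcd4) and 2 were lower (Eif2ak1 and Ppp1r15a). Among all tested probes 13.9% were higher without overlap and 13.1% lower. Ddit3, a stress-induced transcription factor downstream of eIF2 phosphorylation, had -0.36 (-1.06 to 0.34) with all arrays and -0.01 without isotype 2. Denr, which acts in reinitiation, had 0.46 (-0.57 to 1.48) with all arrays, -0.005 without isotype 2 and 0.92 without isotype 1. Mtor had 0.00 (-0.53 to 0.53).

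Ribosome assembly genes were lower in mean for 11 of 13 tested members (84.6%, against 49% of all tested probes), with a median of -0.12 and 0 past the test. Under median scaling 6 of 13 were lower, and 10 of 13 lay below the median of all tested probes. Without OX86 2, 6 of 13 were lower and the median was 0.04, so the count rests on that array. Tsr1, which acts in small subunit maturation, read 7.71 and 7.17 with OX86 and 7.78 and 7.68 with isotype, a change of -0.29 (-0.90 to 0.33) that was -0.02 without OX86 2. Rrs1 (-0.27), Nob1 (-0.25) and Bop1 (-0.22), which also act in ribosome assembly, had the next smallest p-values. The Nob1 change was -0.07 without isotype 2, and without OX86 2 Rrs1 had -0.08 and Bop1 -0.06. Rrs1 was not detected on OX86 2, and its change was -0.061 when no background was corrected.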

How the data were processed

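The authors deposited a table of signal intensity on a linear scale with a detection p-value for each probe and array, and a table of processed intensity. The submitters' processing notes name BeadStudio; no source used here gives its version or settings. The lowest intensity was 194.3 or more on every array, so no background had been subtracted. The authors' processed intensities kept the rank order of the deposited ones (rank correlation 1.0000), with medians of 314.7 and 314.8 on OX86 arrays and 314.9 and 314.4 on isotype arrays, neither logged nor centred. Their normalization is not stated, and they served as an alternative.

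The deposited intensities were processed by neqc (limma 3.58.1, R 4.3.3; normal-exponential background from the detection p-values, offset 16, quantile normalization, log2). Probes detected at p under 0.05 on at least 2 arrays were tested, 13338 of 25697. OX86 was compared with isotype by limma's moderated two-sided test without covariates, adjusted by Benjamini-Hochberg over tested probes. Residual degrees of freedom were 2 and prior degrees of freedom 3.68. The calculation was tested on simulated data with added changes larger than any seen among the tested members, so smaller changes were not covered. Symbols came from the platform annotation, which named 23978 probes. Probe sequences were not used, so hybridisation to paralogues or pseudogenes was not assessed.

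Named members were fixed genes (Eif4e, Eif4g1, Eif4a1, Eif4a2, Eif4ebp1, Eif4ebp2, Eif2s1, Eif2s3x, Eif2s3y, Eif2b5, Eif3e, Eif1, Eif5, Eif5a, Eif5b, Eif6), the 3 tested genes of each eIF group with the smallest unadjusted p, and members that did not pass the filter. Lists of other translation genes named the 4 with the smallest p. Further genes were named after their values were seen. Members, lists and tests were chosen with earlier results of these data known.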

Additional observations from a re-analysis of the deposited data

How the results depend on the processing

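The count of initiation factor genes past the adjusted threshold (limma, Benjamini-Hochberg) was 0 under all 12 alternatives, as was the count over all probes. At an unadjusted p under 0.05 there was 1 initiation factor gene without isotype 1, and 0 under each of the other alternatives; over all probes there were 102 (median scaling) to 1540 (without isotype 1). Under median scaling the medians were 0.13 (all members), 0.13 (eIF1), 0.12 (eIF2), 0.18 (eIF3), 0.10 (eIF4) and 0.095 (eIF5), with all tested probes at 0.118. The eIF2 median was 0.003 with no filter on dim probes, and with the mean of a gene's probes eIF2 had 0.021 and eIF3 -0.010. Without each array in turn, the medians ran from -0.078 to 0.066 (all members), -0.10 to 0.080 (eIF1), -0.078 to 0.019 (eIF2), -0.12 to 0.11 (eIF3), -0.084 to 0.067 (eIF4) and -0.16 to 0.082 (eIF5), where the lone array of a group was assumed to vary like the others. Apart from the fewer arrays or genes, the cause of these shifts was not tested. With the replicate number as a block, 0 members passed and 522 probes had an unadjusted p under 0.05. Deviations of same-numbered arrays correlated at only 0.066. This low value cannot tell whether same-numbered arrays were prepared as pairs, which the labels do not state. Single genes also turned sign, none past the threshold. Median scaling gave 0.027 for Eif4a2, 0.012 for Eif4ebp2, 0.12 for Eif2b5, 0.027 for Eif5, 0.13 for Eif1a, 0.031 for Eif2d, 0.055 for Eif2s2 and 0.021 for Eef1d. The mean of a gene's probes gave 0.081 for Eif2d, 0.018 for Eif2s2 and 0.027 for Eef1d. Without each array in turn, the change ran from -0.19 to 0.14 for Eif4e, -0.080 to 0.16 for Eif4ebp1, -0.33 to 0.081 for Eif4ebp2, -0.39 to 0.014 for Eif4a1, -0.22 to 0.013 for Eif4a2, -0.10 to 0.080 for Eif1a, -0.29 to 0.13 for Eif2s2, -0.12 to 0.16 for Eif2s3x, -0.067 to 0.038 for Eif2b5, -0.30 to 0.087 for Eif2d, -0.33 to 0.94 for Eif3e, -0.17 to 0.21 for Eif5a, -0.17 to 1.51 for Abce1, -0.094 to 0.40 for Etf1 and -0.005 to 0.92 for Denr. The E-box counts under median scaling were chosen after seeing the data. Eif3e, detected on 1 array of each group, was limited by signal over background, with 0.11 and not 0.31 when no background was corrected.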

Other observations

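Because Eif2s3y was not detected, other sex-linked transcripts were read after its values had been seen. Xist, the X-inactivation RNA of female cells, was detected on all 4 arrays, at log2 signals of 9.25 and 9.20 with OX86 and 9.17 and 9.52 with isotype. The Y-linked genes Kdm5d and Uty were detected on 0 arrays, with log2 signals of 5.22 and 5.57 for Kdm5d with OX86 and 4.77 and 4.81 with isotype. Uty had 5.72 and 5.31 with OX86 and 5.53 and 5.27 with isotype. The labels do not state the sex of the mice, and these values did not separate the groups by detection.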
